A study of Rattus norvegicus with 22 samples.

Results

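The 8 genes described are Csn1s1, Csn2 and Csn3 (alpha-S1-, beta- and kappa-casein), Lalba (alpha-lactalbumin), Btn1a1 (butyrophilin), Elf5, Glycam1 and Aqp5, all of them genes of milk or of the milk-secreting epithelium of the mammary gland. They were chosen by name from the 24286 genes of a rat adipose RNA-seq table, on the basis of their higher level in subcutaneous than in visceral fat and of their known place in the mammary gland. The level difference between the depots therefore chose the genes and is given only as a description.

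The 22 libraries form 4 groups. Subcutaneous fat came from the groin and visceral fat from the mesentery, and each depot was sampled in rats with type 2 diabetes (T2DM) and in rats that had undergone DJB, short for duodenal-jejunal bypass, which carries food past the duodenum. There were 5 subcutaneous DJB, 5 subcutaneous T2DM, 6 visceral DJB and 6 visceral T2DM libraries. In the labels every rat is WT (wild type) and on a high-fat diet (HFD for the T2DM groups, HFD+DJB for the bypass groups), and the shared treatment text names streptozotocin, a toxin of the insulin-producing cells, at 30 mg/kg. All titles carry "4 months", whose starting point is not stated. The labels name no sham operation and no sex, and nothing in them says that replicates are separate rats, so p-values measure only the spread between these samples, which may be technical. The cell type field names adipocytes for all but 1 visceral T2DM library, but the tissue field names whole adipose tissue and the extraction text no cell isolation.

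Milk proteins are made by the alveolar cells of the mammary gland, an epithelium that grows inside the subcutaneous fat pads and is fully differentiated only in pregnancy and lactation. Prolactin, acting through its receptor, the kinase Jak2 and the transcription factor Stat5, drives casein transcription together with glucocorticoids, and Elf5, an ETS family transcription factor, is needed for the alveolar cell fate in mice. Caseins form the micelles of milk, kappa-casein keeps the micelle in solution, and alpha-lactalbumin is the regulatory subunit of lactose synthase. Butyrophilin lies in the membrane around milk fat globules, GlyCAM-1 is a mucin-like protein both of milk and of the high endothelial venules of lymph nodes, and aquaporin 5 is a water channel of exocrine glands.

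The casein genes are neighbours. In the RefSeq annotation of the rat assembly GRCr8, Csn3, Csn1s2b, Csn1s2a, Csn2 and Csn1s1 lie in this order among 9 protein-coding genes with a symbol on chromosome 14, between positions 20433277 and 20638849. The promoters are shown because the caseins varied together over the libraries while Glycam1 did not, and because Stat5 binding is the textbook step of casein induction. Each window runs from 250 bases before to 50 bases after the RefSeq start, 5′ to 3′ on the gene's own strand, and capitals mark a match to TTCNNNGAA, the STAT5 consensus, searched on both strands (its letters read the same on either). The windows are chr14:20638800-20639099 (minus strand) for Csn1s1, chr14:20601574-20601873 (plus) for Csn2, chr14:20574422-20574721 (minus) for Csn1s2a, chr14:20545569-20545868 (minus) for Csn1s2b, chr14:20439781-20440080 (minus) for Csn3 and chr7:136561250-136561549 (minus) for Glycam1.
Csn1s1: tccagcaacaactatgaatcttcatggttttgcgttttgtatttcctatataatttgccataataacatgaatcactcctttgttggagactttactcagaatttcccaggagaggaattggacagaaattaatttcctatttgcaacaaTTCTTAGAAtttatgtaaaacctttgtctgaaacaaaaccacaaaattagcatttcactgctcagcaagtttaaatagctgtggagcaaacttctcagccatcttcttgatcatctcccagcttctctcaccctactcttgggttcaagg
Csn2: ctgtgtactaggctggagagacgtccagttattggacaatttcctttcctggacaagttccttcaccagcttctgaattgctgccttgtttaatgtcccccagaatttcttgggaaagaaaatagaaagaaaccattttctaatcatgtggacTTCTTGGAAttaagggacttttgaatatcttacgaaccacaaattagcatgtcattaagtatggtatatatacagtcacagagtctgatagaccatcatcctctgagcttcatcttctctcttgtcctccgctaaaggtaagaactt
Csn1s2a: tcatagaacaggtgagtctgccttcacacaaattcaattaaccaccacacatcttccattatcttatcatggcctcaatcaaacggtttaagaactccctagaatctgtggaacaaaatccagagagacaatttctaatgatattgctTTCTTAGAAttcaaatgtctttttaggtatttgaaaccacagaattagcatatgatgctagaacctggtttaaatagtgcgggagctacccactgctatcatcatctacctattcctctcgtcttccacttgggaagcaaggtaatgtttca
Csn1s2b: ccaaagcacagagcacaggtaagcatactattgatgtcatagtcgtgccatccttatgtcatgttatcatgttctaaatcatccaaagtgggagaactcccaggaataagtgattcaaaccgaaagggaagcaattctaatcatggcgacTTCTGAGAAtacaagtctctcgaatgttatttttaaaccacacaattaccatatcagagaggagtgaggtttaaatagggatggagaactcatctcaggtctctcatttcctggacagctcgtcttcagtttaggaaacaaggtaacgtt
Csn3: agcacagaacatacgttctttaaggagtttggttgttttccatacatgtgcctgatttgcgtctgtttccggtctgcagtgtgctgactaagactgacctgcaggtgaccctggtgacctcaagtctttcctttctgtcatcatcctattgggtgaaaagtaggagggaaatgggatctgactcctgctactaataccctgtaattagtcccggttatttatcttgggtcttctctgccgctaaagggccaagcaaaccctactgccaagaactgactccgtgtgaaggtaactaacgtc
Glycam1: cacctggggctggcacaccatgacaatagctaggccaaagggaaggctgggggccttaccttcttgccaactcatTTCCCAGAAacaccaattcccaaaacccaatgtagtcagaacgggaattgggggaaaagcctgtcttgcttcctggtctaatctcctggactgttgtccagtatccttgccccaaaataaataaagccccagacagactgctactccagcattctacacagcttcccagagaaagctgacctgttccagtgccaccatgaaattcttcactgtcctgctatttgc

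The match began 100 bases before the start in Csn1s1 (TTCTTAGAA), 97 bases before it in Csn2 (TTCTTGGAA), 102 before it in Csn1s2a (TTCTTAGAA) and 100 before it in Csn1s2b (TTCTGAGAA), so the 4 calcium-sensitive caseins carried it at nearly the same distance. Glycam1 had a match (TTCCCAGAA) 175 bases before its start, and the windows of Csn3, Lalba, Btn1a1 and Aqp5 had none. Of the 33469 promoters in the RefSeq table, 2970 (8.87%) held the motif. A second motif, the NF1 half-site TTGGCA on either strand, which shares no bases with the matches above, stood in Lalba at 142 and 119 bases before the start, in Csn3 at 14 bases after it and in Glycam1 at 186 bases before it, against 13.98% of all promoters (4678). Of the 8 genes 7 had a promoter in the table, and Elf5 had none. The match did not follow the likeness over libraries, since Glycam1 held it, while Csn3, Lalba, Btn1a1 and Aqp5, which varied with the set, did not. A match describes letters in these windows and not a bound site.

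The values are read counts and FPKM (fragments scaled for gene length and depth) per gene, and levels of different genes are compared here in FPKM. Total counts lay between 46824314 and 88829000 per library, so counting error was small beside the spread between libraries except for Glycam1, Aqp5 and Elf5 in visceral fat. All 8 genes passed the filter (FPKM of 1 or more in 5 or more libraries), Elf5, Aqp5 and Glycam1 mainly through subcutaneous libraries, and 14019 of 24286 genes were tested. The 37 mitochondrially encoded genes took 22.7% ± 8.42 of the counts in subcutaneous DJB, 9.58% ± 4.19 in subcutaneous T2DM, 29.5% ± 11.7 in visceral DJB and 27.4% ± 11.2 in visceral T2DM (mean ± SD, n = 5, 5, 6 and 6). Wt1, a gene of mesothelium and visceral fat, was at 0.11 FPKM or less in all 10 subcutaneous libraries and at 1.33 to 16.1 FPKM in all 12 visceral ones, so by this gene every library matched its depot label. The Y-linked genes Kdm5d (1.54 to 15.6 FPKM) and Eif2s3y (16.4 to 38.0 FPKM) were read in all 22 libraries, while Ddx3y was at most at 0.195 FPKM and Usp9y had reads in 1 library only.

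Taken as a share of all counts, milk and alveolar transcripts were a large component of some subcutaneous libraries. In subcutaneous DJB libraries 1 to 5 the 8 genes took 2.18%, 0.574%, 0.0773%, 7.65% and 0.919% of the counts, and in subcutaneous T2DM libraries 1 to 5 they took 10.6%, 11.1%, 8.70%, 18.5% and 0.0578%. The visceral libraries held 5.40e-05% to 0.0556% (median 0.0395%) in DJB and 0.0214% to 0.0538% (median 0.0423%) in T2DM. Of the subcutaneous T2DM libraries 4 stood above every DJB library, and the other one, library 5, stood below all of them, so the groups overlapped. The means were 2.28% ± 3.10 in subcutaneous DJB, 9.79% ± 6.59 in subcutaneous T2DM, 0.0339% ± 0.0190 in visceral DJB and 0.0400% ± 0.0138 in visceral T2DM (SD, n = 5, 5, 6 and 6). The treatment groups differed by less than 1 SD in visceral fat and by little more than the larger SD in subcutaneous fat. In whole tissue, fewer alveolar cells and less milk RNA per cell cannot be told apart.

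**Figure D1:**
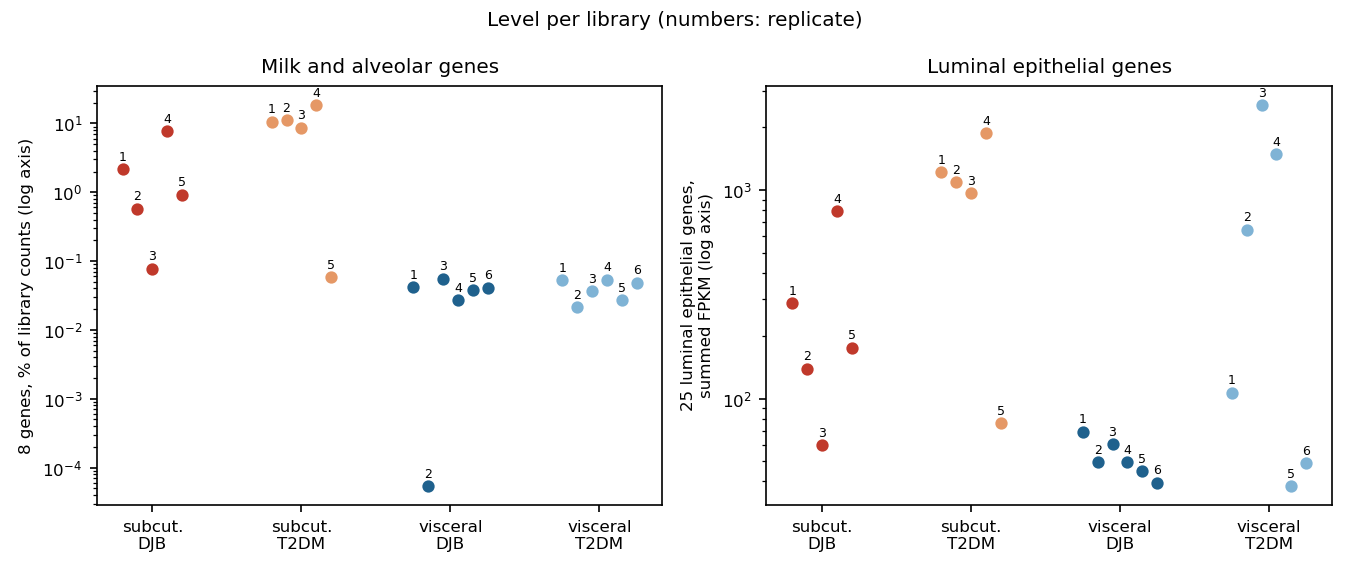
The left panel plots the share of each library's counts that came from the 8 milk and alveolar genes (percent, log axis) and the right panel the summed FPKM of 25 luminal epithelial genes (log axis), with 1 point per library, numbered by replicate, in the 4 groups. Subcutaneous T2DM library 5 (0.0578%) and subcutaneous DJB library 3 (0.0773%) sit just above the visceral range on the left, and visceral DJB library 2 sits far below all others; visceral T2DM libraries 2, 3 and 4 are high on the right only.

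Csn1s1 was the dominant transcript of the set, with 79.5% to 94.6% of the set's counts in every subcutaneous library. It was read at 13850, 3686, 522.1, 54846 and 5680 FPKM in subcutaneous DJB libraries 1 to 5, against 66936, 71901, 63065, 134278 and 406.5 FPKM in subcutaneous T2DM libraries 1 to 5. Visceral levels were 0.388 to 400.5 FPKM (median 283.3) in DJB and 126.2 to 372.7 FPKM (median 294.7) in T2DM. The lowest library of each subcutaneous group came close to the visceral range, and the other 8 subcutaneous libraries exceeded the highest visceral one by far. Group means were 15717 ± 22422, 67317 ± 47434, 243.1 ± 136.2 and 275.4 ± 100.3 FPKM in subcutaneous DJB, subcutaneous T2DM, visceral DJB and visceral T2DM (SD, n = 5, 5, 6 and 6). In order of level subcutaneous T2DM came first, subcutaneous DJB next and the visceral groups last, and the ranges of the treatment groups overlapped in each depot.

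Csn3, the micelle-capping casein, was at 3134, 452.7, 82.2, 2834 and 1733 FPKM in subcutaneous DJB, against 19121, 15873, 2453, 2465 and 34.4 FPKM in subcutaneous T2DM. Csn2, beta-casein, a major casein of rodent milk, was far lower, at 157.4, 49.3, 5.06, 462.3 and 122.7 FPKM in subcutaneous DJB and 272.2, 1071, 148.1, 299.5 and 1.69 FPKM in subcutaneous T2DM. Lalba was at 767.6, 198.1, 23.8, 1859 and 250.3 FPKM in subcutaneous DJB, against 2665, 2937, 2243, 6323 and 20.9 FPKM in subcutaneous T2DM. For all 3 genes the groups overlapped, because T2DM library 5 was the lowest of the 10 subcutaneous libraries, and for Csn2 and Csn3 the ranges of the remaining libraries overlapped as well. In visceral fat the medians were 1.25 FPKM (DJB) and 2.18 FPKM (T2DM) for Csn2, 13.3 and 32.0 FPKM for Csn3, and 11.2 and 13.5 FPKM for Lalba.

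Elf5, the alveolar transcription factor, was at 52.9, 8.03, 1.19, 91.6 and 14.1 FPKM in subcutaneous DJB libraries and at 202.0, 184.3, 140.4, 323.7 and 0.782 FPKM in subcutaneous T2DM libraries. Btn1a1, the milk fat globule protein, was at 112.1, 12.3, 1.37, 99.8 and 20.8 FPKM in subcutaneous DJB and at 515.3, 478.1, 285.9, 718.2 and 1.87 FPKM in subcutaneous T2DM. For Elf5 and Btn1a1, as for Csn1s1 and Lalba, each of T2DM libraries 1 to 4 was higher than every DJB library, and T2DM library 5 was at or near the level of DJB library 3. Visceral medians were 0.754 FPKM in DJB and 0.689 FPKM in T2DM for Elf5, and 1.05 FPKM in DJB and 0.708 FPKM in T2DM for Btn1a1.

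Aqp5 was the lowest of the epithelial genes, at 2.82, 1.59, 0.0481, 9.08 and 1.81 FPKM in subcutaneous DJB, against 13.9, 31.4, 31.1, 8.65 and 0 FPKM in subcutaneous T2DM. In visceral fat it was at 0 to 0.267 FPKM in DJB and at 0 to 0.107 FPKM in T2DM, with 0 counts in 1 DJB and 4 T2DM libraries. Glycam1 had another pattern, with 1.21, 531.0, 0, 90.8 and 1.29 FPKM in subcutaneous DJB and 0.625, 11.4, 0.957, 2.18 and 0 FPKM in subcutaneous T2DM. In its highest library, DJB 2, Csn1s1 was lower than in every other library of the group but DJB 3. In visceral fat Glycam1 was at 0 in 5 of 6 DJB libraries and 1 of 6 T2DM libraries, with a highest value of 1.97 FPKM.

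**Figure D2:**
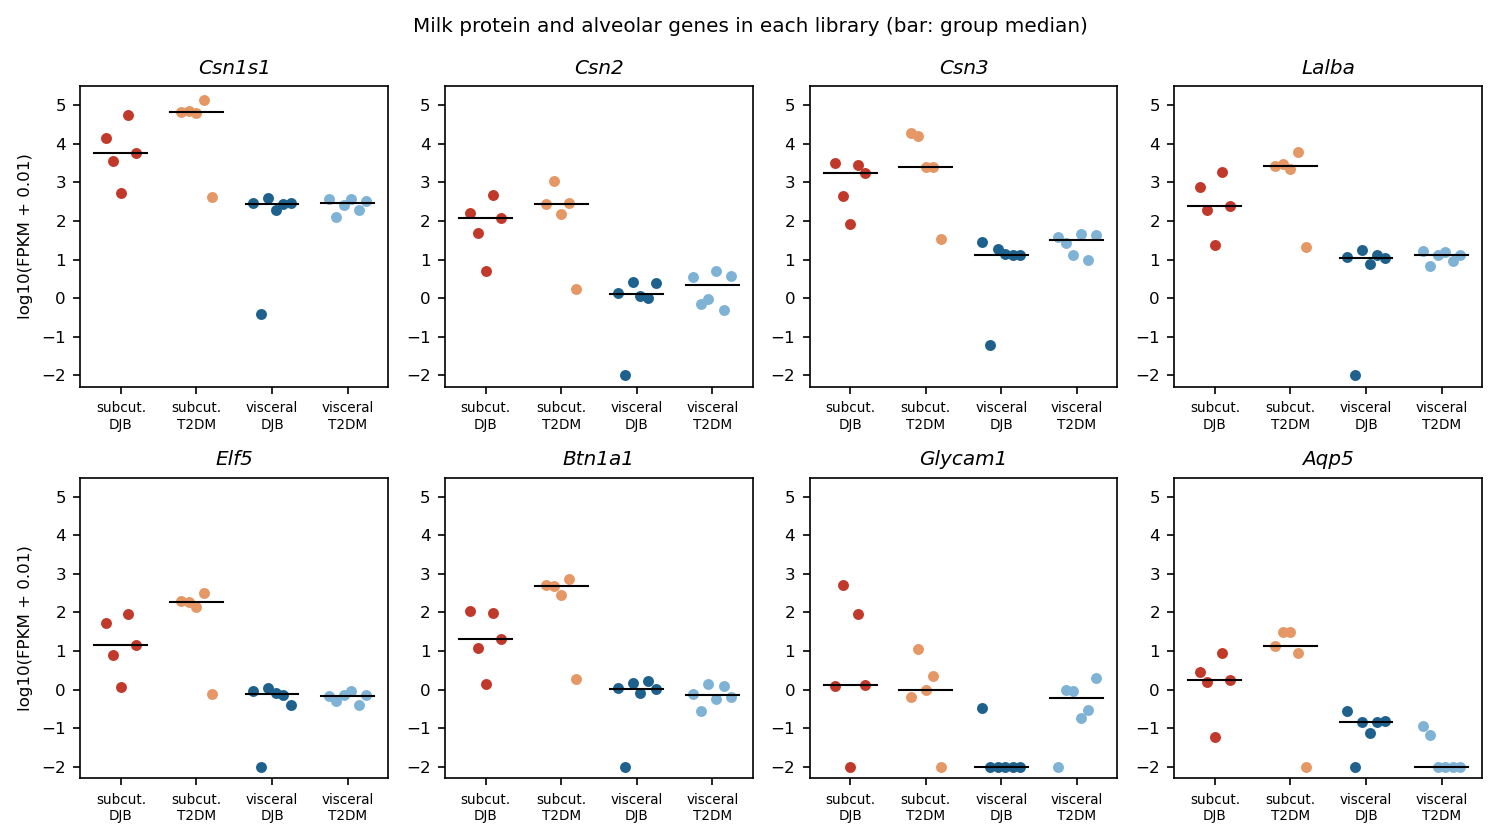
Level of each of the 8 genes as log10(FPKM + 0.01), 1 point per library, with a bar at the group median; a gene with 0 reads lies at -2 on this scale. In 7 panels most subcutaneous points stand above the visceral ones, with the lowest point of each subcutaneous group near or within the visceral range. In the Glycam1 panel 2 subcutaneous DJB libraries (531.0 and 90.8 FPKM) stand alone.

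The genes were in nearly fixed proportion to one another for some pairs and not for others. Lalba was 3.39% to 5.54% of the Csn1s1 FPKM in the 21 libraries other than visceral DJB library 2, a range of 1.63-fold over libraries whose Csn1s1 level ran from 126.2 to 134278 FPKM. Elf5 was 0.127% to 0.413% of Csn1s1 and Btn1a1 0.154% to 0.809% in the same libraries. Csn3 ranged from 1.84% to 30.5% of Csn1s1, a 16.6-fold span, and Csn2 from 0.223% to 2.16%, a 9.69-fold span. The Csn2 proportion was 0.843% to 2.16% (median 1.14%) in subcutaneous DJB and 0.223% to 1.49% (median 0.407%) in subcutaneous T2DM, where library 2 was the highest, so the groups overlapped. Csn1s2a, an alpha-S2-like casein outside the set, was 2.80% to 5.94% of Csn1s1 in subcutaneous DJB and 0.843% to 2.45% in subcutaneous T2DM, without overlap, and 1.49% to 4.49% in visceral fat. These proportions were not tested, since the pairs were picked after their values were seen. Reads shared between casein copies could be counted under either gene, so the casein proportions are uncertain to that extent.

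**Figure D3:**
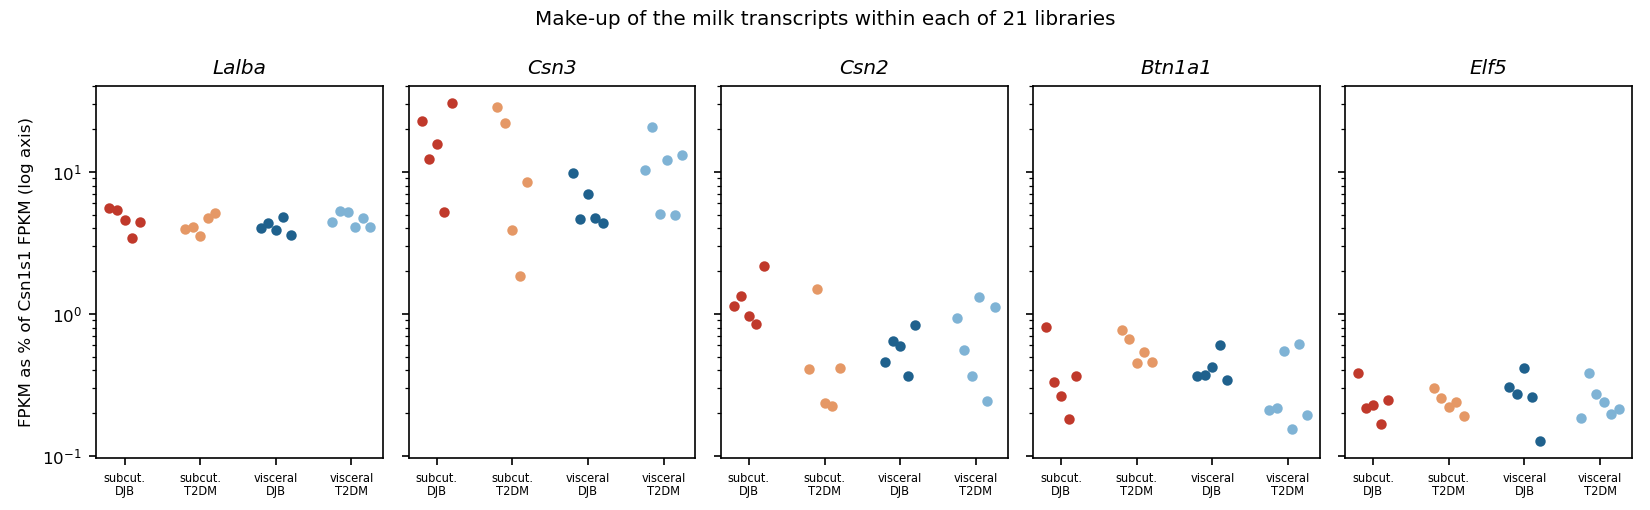
FPKM of Lalba, Csn3, Csn2, Btn1a1 and Elf5 as a percentage of the Csn1s1 FPKM of the same library (log axis), for the 21 libraries other than visceral DJB library 2. Lalba keeps within 3.39% to 5.54% in all 4 groups, while Csn3 spreads over 1.84% to 30.5%.

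In visceral fat the same transcripts were present at a low level in all but 1 library. Of 12 visceral libraries 11 held 14400 to 30568 Csn1s1 counts, 506 to 2414 Csn3 counts and 441 to 800 Lalba counts, and their Csn1s1 FPKM spanned 3.17-fold (126.2 to 400.5). Over these 11 libraries Lalba spanned 2.62-fold, Elf5 2.86-fold, Csn3 4.70-fold, Btn1a1 5.96-fold and Csn2 10.3-fold, and Aqp5 and Glycam1 were at 0 in 4 and 5 of them. The exception was visceral DJB library 2, the deepest of all with 88829000 counts, which held 44 Csn1s1 and 4 Csn3 counts and 0 counts of the other 6 genes, each of which allows a share of up to 3.38e-06% of its counts (3 counts, counting error only). The visceral median was 0.423% of the subcutaneous T2DM median for Csn1s1, 0.458% for Csn2, 0.650% for Csn3, 0.467% for Lalba, 0.381% for Elf5 and 0.443% for Aqp5, with Btn1a1 lower at 0.193%. Glycam1 stood apart at 9.24%. Of 24 lactation genes outside the set with a value, 11 were under 1%, among them Csn1s2a (0.695%), Olah (0.628%), Muc15 (0.381%), Lao1 (0.377%) and Slc34a2 (0.647%). A further 3 lay between 1% and 10%, such as Lcn2 (5.21%), and 10 lay above 10%, such as Mfge8 (11.6%), Xdh (39.6%), Slc30a4 (73.7%) and Fabp3 (222.4%). Epcam, a general epithelial gene, was at 30.1, 180.7 and 129.8 FPKM in visceral T2DM libraries 2, 3 and 4, the ones with the urothelial gene Upk3a at 219.6, 419.8 and 164.7 FPKM. The Csn1s1 levels of these 3 libraries, 126.2, 259.2 and 372.7 FPKM, were no higher than the 400.5 FPKM of visceral DJB library 3. Whether the visceral reads come from cells of that fat or from carry-over between samples or libraries was not tested.

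The depot differences in the fitted model, given with no test, were of one order for most of the set. The log2 fold change of subcutaneous over visceral fat in T2DM was 7.72 for Csn1s1, 7.05 for Csn2, 7.77 for Csn3, 7.61 for Lalba, 7.77 for Elf5, 8.69 for Btn1a1 and 8.56 for Aqp5, but 1.59 for Glycam1. Within the DJB groups it was 6.24 for Csn1s1, 6.98 for Csn2, 6.88 for Csn3, 6.12 for Lalba, 5.82 for Elf5, 5.71 for Btn1a1 and 4.78 for Aqp5, but 11.27 for Glycam1. Glycam1 was thus the smallest of the 8 differences in T2DM and the largest in DJB. Its DJB value rests on few visceral reads, since 5 of 6 visceral DJB libraries are at 0 and library 1 holds 12 counts.

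The bypass contrast, which the choice of the genes did not use, asks whether milk gene levels differ between operated and diabetic rats within a depot. In subcutaneous fat 7 of 8 genes had a negative log2 fold change of DJB over T2DM and Glycam1 a positive one, and none of the 8 passed edgeR's quasi-likelihood test at a Benjamini-Hochberg adjusted p of 0.05 over all 14019 genes. The background was 0% (0 of 14019 genes called, 1259 at an unadjusted p under 0.05), and 3 of the 8 genes had an unadjusted p under 0.05. DESeq2 called 168 genes in this contrast, none of them among the 8, and limma called 0. The median of the 8 was -2.04, beside 0.05 over all genes tested.

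Btn1a1 had the lowest log2 fold change, -2.88 (SE 1.14, edgeR adjusted p = 0.407), from means of 49.3 ± 52.4 FPKM in subcutaneous DJB and 399.9 ± 270.3 FPKM in subcutaneous T2DM (SD, n = 5 each). Aqp5, Csn3 and Elf5 followed with -2.14 (SE 1.26), -2.13 (SE 1.14) and -2.13 (SE 1.01), then Lalba with -1.96 (SE 1.11), Csn1s1 with -1.81 (SE 1.19) and Csn2 with -0.87 (SE 1.10). Their edgeR adjusted p-values lay between 0.407 and 0.917. Single libraries moved these values: without subcutaneous DJB library 4, the highest of its group, Csn1s1 was at -3.54 (edgeR adjusted p = 0.276) and the median of the 8 at -3.23, and without T2DM library 5, the lowest, Csn1s1 was at -2.13 and the median at -2.36. None of the 8 genes passed under any library left out.

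In visceral fat the bypass contrast called 0 of the 8 genes, against a background of 4.69% (658 of 14019 genes) by edgeR, and 1 of the 8, Glycam1, had an unadjusted p under 0.05. DESeq2 and limma also called 0 of the 8. The log2 fold changes were -0.34 (SE 1.05) for Csn1s1, -0.80 (SE 1.02) for Csn2, -1.24 (SE 1.02) for Csn3, -0.47 (SE 0.99) for Lalba, -0.18 (SE 0.95) for Elf5 and 0.10 (SE 0.98) for Btn1a1. For these 6 genes the difference was smaller than 1.5 times its SE. In the same contrast 17 of 25 luminal epithelial genes fell, among them the keratin Krt7, a count that was 0 with limma, when the visceral groups were fitted alone, or without visceral DJB library 1, 2, 5 or 6, 1 without visceral DJB library 3 and 4 without visceral T2DM library 2. All 7 urothelial genes fell too (median -7.78), a count that was 0 in these same settings and without visceral DJB library 3, and 4 without visceral T2DM library 2. They had sums of 0.264 to 5.20 FPKM in visceral DJB and of 2.56 to 31.9 FPKM in visceral T2DM libraries 1, 5 and 6, beside 727.7, 1325 and 788.9 FPKM in visceral T2DM libraries 2, 3 and 4. Without visceral DJB library 2, which holds almost no milk transcripts, Csn1s1 was at -0.07, Lalba at -0.21 and Elf5 at 0.08. Aqp5, at 1.64 (SE 1.34), and Glycam1, at -4.06 (edgeR adjusted p = 0.211), rest on at most 24 and 77 counts per library. For Glycam1 5 of 6 DJB libraries are at 0, and library 1 holds 12 counts.

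The difference between the bypass effects in the depots (subcutaneous minus visceral) was called for 0 of the 8 genes by edgeR, DESeq2 and limma, against a background of 0% by edgeR (0 of 14019 genes, 1957 at an unadjusted p under 0.05; 123 genes by DESeq2). It was 9.68 (SE 2.64, edgeR adjusted p = 0.227) for Glycam1, which alone of the 8 had an unadjusted p under 0.05. Over the alternatives the Glycam1 value ran from 2.80 to 13.8, and 5 of 6 visceral DJB libraries were at 0. For Aqp5, Btn1a1 and Elf5 the difference was -3.78, -2.98 and -1.95. For Lalba, Csn1s1, Csn3 and Csn2 it was -1.49, -1.47, -0.89 and -0.07. The depot dependence of a bypass effect on these genes was therefore not detectable with these libraries.

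**Figure D4:**
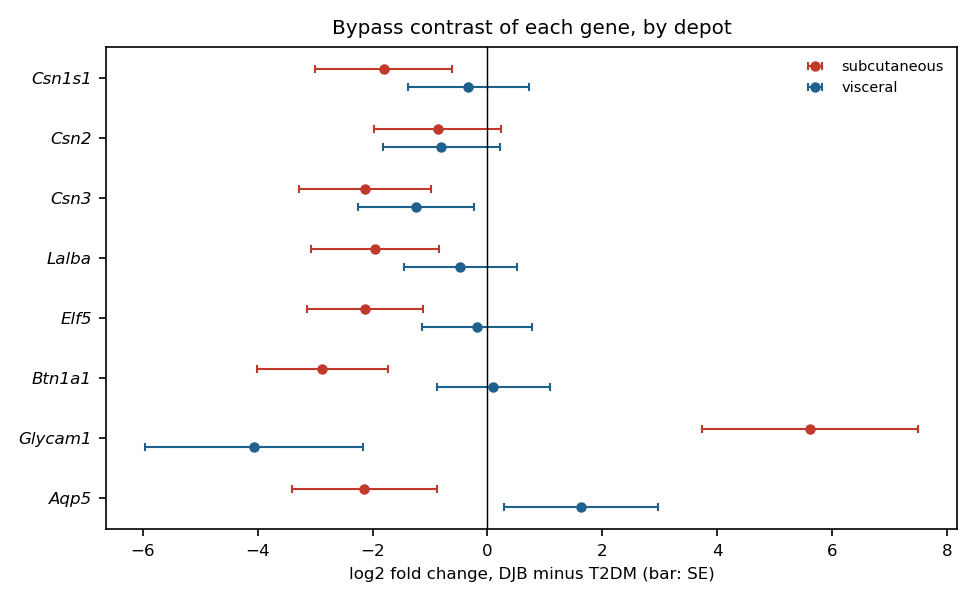
Log2 fold change of DJB over T2DM for each of the 8 genes in subcutaneous (red) and visceral fat (blue), with bars of 1 SE from edgeR. In subcutaneous fat 7 genes lie between -2.88 and -0.87 and Glycam1 at 5.62; in visceral fat 6 genes lie between -1.24 and 0.10, with Aqp5 at 1.64 and Glycam1 at -4.06.

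Other genes of lactation, of which 26 of 28 listed were in the table and 21 were tested, had for the most part the sign of the caseins in the depot contrasts, with a positive log2 fold change in 18 in T2DM and in 17 in DJB. Of the 21 genes 9, among them the phosphate transporter Slc34a2 and the casein Csn1s2b, passed the filter only with the subcutaneous libraries, where they are high, so their depot differences are a description with no test. Of the 12 that had an FPKM of 1 or more in 5 or more visceral libraries, 6 rose in subcutaneous over visceral T2DM fat by edgeR and 0 fell (background 3.28% higher), namely Csn1s2a, Lcn2, Muc15, Xdh, the milk fat globule protein Mfge8 (4.11, SE 0.65) and Olah, the thioesterase that ends medium-chain fatty acids (7.59, SE 1.22). Between the DJB groups 3 of these 12 rose and 0 fell (background 1.09% higher), namely Csn1s2a (6.92, SE 1.31), the milk mucin Muc15 (6.82, SE 1.26) and Olah. Over all 21 genes edgeR counted 13 in T2DM and 10 in DJB. In each contrast 7 of these calls came from the 9 genes above, so the totals are a description and no test. The DJB count of 10 rests on few libraries, since it was 1 without subcutaneous DJB library 4 or without visceral DJB library 1, 5 or 6, 3 without visceral DJB library 4, 5 without visceral DJB library 2 or 3, and 0 when the DJB groups were fitted alone. These lists were compiled with earlier results of the same data known and extend a set chosen for its depot difference, so their direction is no independent evidence.

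In the bypass contrast in subcutaneous fat, 20 of these 21 genes had a negative log2 fold change and none was called by edgeR. The median of the 21 was -1.51, beside 0.05 over all genes tested. Several of them varied together over the libraries, so the 20 signs are not separate results. Of the 21 genes, 6 had an unadjusted p under 0.05 and DESeq2 called 1, beside 1259 and 168 of all 14019 genes. The smallest p-values belonged to Mfge8 (-2.12, SE 0.64), Xdh, the xanthine oxidoreductase of milk fat globules (-1.29, SE 0.40), the peroxidase Lpo (-2.35, SE 0.83) and the glucose transporter Slc5a1 (-2.57, SE 1.12). In visceral fat 2 of 21 genes fell, beside the background of 4.69%, namely Tfap2c, a transcription factor of several epithelia (-3.86, SE 0.99, edgeR adjusted p = 0.0362), and the fatty acid binder Fabp3 (-3.32, SE 0.89, edgeR adjusted p = 0.0396). Tfap2c was at 2.26, 6.76 and 2.77 FPKM in the visceral T2DM libraries 2, 3 and 4 that hold urothelial genes and at 0.69 FPKM or less in the other 9 visceral libraries. Both calls were lost without any 1 of the 6 visceral DJB libraries and without visceral T2DM library 2 or 5, and also with limma, with the replicate block, with no filter and with the visceral groups fitted alone.

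Of the prolactin pathway, 11 of 15 listed genes were tested. Stat5a, the main Stat5 of mammary epithelium, had 25.7, 17.4, 12.1, 27.2 and 11.2 FPKM in subcutaneous DJB, against 68.2, 55.5, 53.0, 109.5 and 11.7 FPKM in subcutaneous T2DM. It was at 2.97 to 13.1 FPKM in visceral fat, and its log2 fold change of subcutaneous over visceral T2DM was 2.56 (SE 0.44, edgeR adjusted p = 0.0019). With Tnfrsf11a, the receptor of RANKL, and Stat5b it made 3 of the 11 that rose in that contrast (background 3.28% higher), and 0 of 11 were called between the DJB groups (median 0.07). Stat5b was lost without subcutaneous T2DM library 1, 2, 3 or 4 or visceral T2DM library 3 or 5. In the subcutaneous bypass contrast 0 of 11 were called by edgeR. DESeq2 called 1, while 2 had an unadjusted p under 0.05, beside 168 and 1259 of all 14019 genes. Those 2 were Stat5a (-1.56, SE 0.45, edgeR adjusted p = 0.244) and Cish, a Stat5 target gene (-1.38, SE 0.63). In the visceral bypass contrast 1 of 11, Gata3, a luminal transcription factor, fell (-3.47, SE 1.00, edgeR adjusted p = 0.0499), beside the background of 4.69%, with 36.1 and 21.1 FPKM in visceral T2DM libraries 3 and 4 and at most 1.46 FPKM in the other 10. That call was lost without any 1 of 16 of the 22 libraries, among them all 6 of visceral DJB. The receptor gene Prlr was at 0.14 to 0.70 FPKM apart from library 3 (0.09 FPKM) in subcutaneous DJB and at 1.28 to 5.17 FPKM in subcutaneous T2DM apart from library 5 (0 FPKM).

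Luminal epithelial genes stood high in the same subcutaneous libraries as the milk genes, but not in the same visceral ones. The 25 listed luminal genes, all in the table and all tested, summed to 59.6 to 795.3 FPKM (median 175.3) in subcutaneous DJB, 76.2 to 1882 FPKM (median 1091) in subcutaneous T2DM, 39.4 to 69.4 FPKM in visceral DJB and 38.0 to 2562 FPKM in visceral T2DM, where libraries 2, 3 and 4 had 647.1, 2562 and 1489 FPKM. The 16 basal and myoepithelial genes in the table summed to 73.5 to 730.6 FPKM in subcutaneous DJB, with the highest sum in library 3, the one with the least milk RNA of its group, and to 298.7 to 1021 FPKM in subcutaneous T2DM. In visceral DJB they summed to 231.2 to 513.9 FPKM. Over the 11 visceral libraries other than DJB library 2 the median was 220.9 FPKM for Acta2 and 0.47 FPKM for the keratin Krt5. The sum is therefore no measure of basal epithelium alone. In the subcutaneous bypass contrast 22 of the 25 luminal genes were negative, and 0 were called by edgeR or by DESeq2. The median of the 25 was -1.66, beside 0.05 over all genes tested. Of the 25, 2 had an unadjusted p under 0.05, beside 1259 of all 14019 genes. Cldn3, a tight junction protein, had 17.7, 5.04, 0.35, 72.2 and 8.23 FPKM in subcutaneous DJB, against 112.9, 86.1, 77.7, 135.6 and 0.21 FPKM in subcutaneous T2DM, and within DJB the libraries stood in the same order as for Csn1s1. The part of epithelial content in the bypass values of the 8 genes was not tested. Adipocyte genes, 14 of 15 in the table, summed to 316 to 17112 FPKM in subcutaneous DJB and to 2083 to 5644 FPKM in subcutaneous T2DM, and 0 of the 14 were called between them by edgeR, with 0 at an unadjusted p under 0.05. The 10 genes of skin in the table summed to 3.65 FPKM or less in subcutaneous fat, and Lor, the cornified envelope protein loricrin, had no reads there. The 6 genes of salivary and lacrimal glands in the table summed to 0.739 to 14.5 FPKM (median 4.90) in subcutaneous DJB and to 0.331 to 51.3 FPKM (median 18.4) in subcutaneous T2DM. Most of that sum was the secretoglobin Scgb2a1, at 0.118 to 12.2 FPKM in DJB and 0.0282 to 38.4 FPKM in T2DM, while the salivary genes Amy1a and Bpifa2 were at most at 0.28 and 1.15 FPKM in subcutaneous fat. The part of these glands in the values of the 8 genes was not tested.

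By likeness over libraries, the 10 genes closest to the mean log2(CPM + 1) of the set over all 22 libraries were Muc15 (Pearson r 0.99), Olah, Oprpn, Csn1s2a, Lao1, Mia, Csn1s2b, Slc34a2, Tfap2b and Qsox1 (r 0.96). Over the 10 subcutaneous libraries alone they were the desmosomal cadherin Dsg2 (r 0.99), Oprpn, Krt18, Csn1s2a, Cldn3, Muc15, Mia, Galnt3, Gata3 and Cd24 (r 0.98), of which 4 were also in the first list. The 8 genes themselves correlated with their own mean at 0.95 or more over 22 libraries except Glycam1, at 0.50. Over 10 libraries it was 0.93 or more except for Glycam1, at 0.29. Each gene is part of that mean, which raises its r by construction. These values describe genes read in the same libraries, which differ in depth and in the level of luminal epithelial genes. The largest part of the spread over 22 libraries is the depot difference that chose the set. Oprpn was at 78.5 to 631.8 FPKM in subcutaneous DJB apart from library 3 (9.33 FPKM), at 674.5 to 1729 FPKM in subcutaneous T2DM apart from library 5 (4.41 FPKM), and at 0 FPKM in visceral DJB library 2. Of the other genes between Csn3 and Csn1s1, Prr27 was at 4.65, 4.63, 1.08, 133.1 and 7.97 FPKM in subcutaneous DJB and at 94.2, 78.5, 355.1, 640.0 and 1.75 FPKM in subcutaneous T2DM, while Fdcsp, Odam and Stath stayed at 1.53 FPKM or less in all libraries.

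Glycam1 was highest in the subcutaneous libraries with the most Ms4a1 and Cr2. In subcutaneous DJB library 2, where Glycam1 was at 531.0 FPKM, the B cell genes Ms4a1 (CD20) and Cr2 were at 301.7 and 75.3 FPKM and the lymphoid chemokine Ccl21 at 1003 FPKM. In DJB library 4, with 90.8 FPKM of Glycam1, Ms4a1 and Cr2 were at 55.5 and 16.4 FPKM, and in T2DM library 2, with 11.4 FPKM, they were at 11.1 and 4.63 FPKM. In the other 7 subcutaneous libraries Glycam1 was at 2.18 FPKM or less and Ms4a1 at 1.82 FPKM or less, so the 3 libraries with the most Glycam1 were the 3 with the most of both B cell genes. The 18 lymph node genes summed to 3358 FPKM in DJB library 2, against 206.0 to 718.0 FPKM in the other subcutaneous DJB libraries and 240.2 to 556.7 FPKM in subcutaneous T2DM. This sum did not set T2DM library 2 apart: it was 274.1 FPKM there. In T2DM library 5 and DJB library 3, which had no Glycam1 reads, the sums were 556.7 and 446.2 FPKM. Chst4, which sulfates the sugars of high endothelial venules, was at 0.33 FPKM in DJB library 2 and 0.05 FPKM in T2DM library 2 and at 0 in the other 8 subcutaneous libraries, but its highest value, 0.43 FPKM, was in visceral DJB library 4, which had no Glycam1 reads. Madcam1, another gene of venules that lymphocytes enter, was at 0.09 and 0 FPKM in subcutaneous DJB libraries 2 and 4, against 0.27, 0.74 and 1.40 FPKM in DJB libraries 1, 3 and 5.

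Of the 18 lymph node genes 13 were tested. In the subcutaneous bypass contrast 11 of them had a positive log2 fold change, and 0 were called by edgeR. The median of the 13 was 3.21, beside 0.05 over all genes tested. Of the 13 genes, 10 had an unadjusted p under 0.05 and DESeq2 called 4, beside 1259 and 168 of all 14019 genes. The smallest p-values belonged to Ccr7 (4.62, SE 1.29, edgeR adjusted p = 0.244), Cd79a (4.58, SE 1.31), Cd22 (2.60, SE 0.75) and Ccl19 (5.24, SE 1.73). Glycam1 itself was at 5.62 (SE 1.88, edgeR adjusted p = 0.316) with means of 124.8 ± 230.3 FPKM in DJB and 3.03 ± 4.74 FPKM in T2DM (SD, n = 5 each). Without DJB library 2 its log2 fold change was 3.42 (edgeR adjusted p = 0.909), and the median of the lymph node genes was 0.80, with 1 at an unadjusted p under 0.05. The part of lymph node tissue in the Glycam1 values was not tested.

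**Figure D5:**
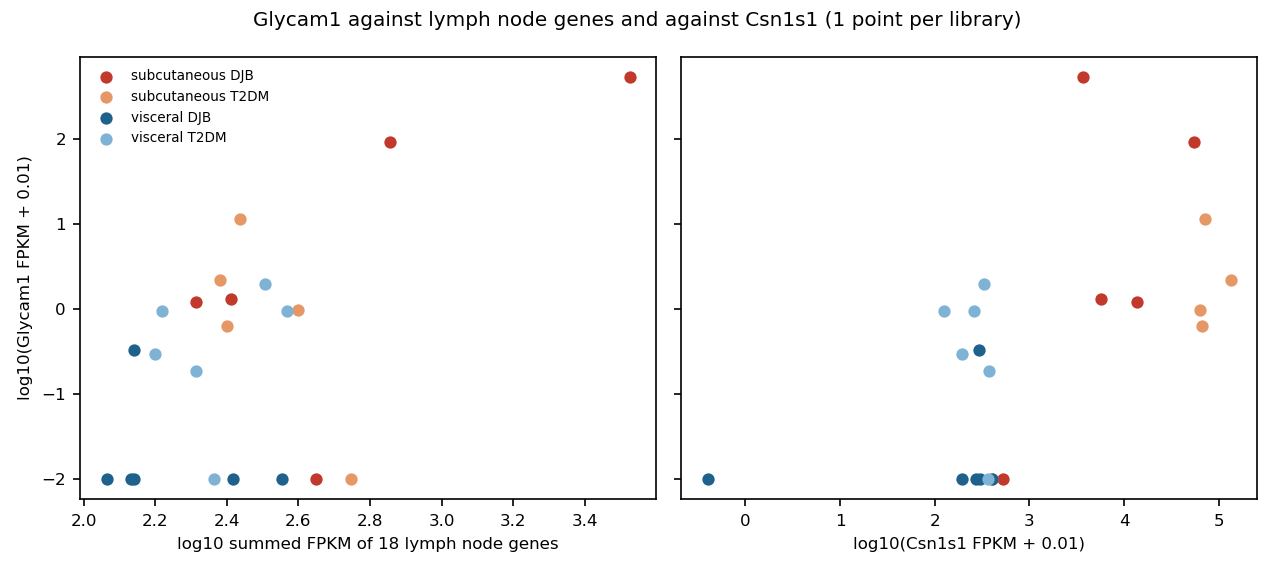
Glycam1 as log10(FPKM + 0.01) against the log10 of the summed FPKM of 18 lymph node genes (left) and against log10(Csn1s1 FPKM + 0.01) (right), 1 point per library, coloured by group. The 2 subcutaneous DJB libraries with the most Glycam1 are the 2 with the largest lymph node sums on the left. Subcutaneous T2DM library 2, with 11.4 FPKM of Glycam1, had a sum of 274.1 FPKM, below that of T2DM library 5 (556.7 FPKM), which had no Glycam1 reads. On the right subcutaneous DJB library 4 and T2DM library 3, with 54846 and 63065 FPKM of Csn1s1, had 90.8 and 0.957 FPKM of Glycam1.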

How the data were processed

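RNA-seq libraries of visceral and subcutaneous rat fat were used as 1 table of 22 libraries. The values are read counts and FPKM per gene, both as deposited by the authors and named in the file headers. Per the submitters' processing notes, mRatBN7.2 was the build, and cutadapt 1.9 and FastQC were among the tools. For the aligner, the counting program and the use of strand in counting the answer is the same: not given in the sources used here. Total counts ran from 46824314 to 88829000 per library. Intervals and the floor of 3 counts cover counting error only.

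Counts were fitted with edgeR 4.0.16 (R 4.3.3), as the main test: quasi-likelihood, TMM scaling (factors 0.543 to 1.38), 1 mean for each of the 4 groups over all 22 libraries, and Benjamini-Hochberg adjustment at 0.05 over the 14019 of 24286 genes with an FPKM of 1 or more in 5 or more libraries. The common biological coefficient of variation was 0.551 with 3.21 prior degrees of freedom. Levels are the deposited FPKM. Summaries and figures were made with Python 3.11.15, pandas 2.3.3 and matplotlib 3.10.9. The fit was tested on simulated data, and how many of the changed genes it recovered is not given here. The lowest chi-square per gene among 50 pairs of libraries of the same group was 118, so no library was counted as a duplicate.

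The alternatives were DESeq2 1.42.0, its size factors within edgeR, TMM without the members and mitochondrially encoded genes, no filter, limma 3.58.1 on log2(FPKM + 1) and on log2(FPKM + 0.1), fits of the compared groups alone, the replicate number as a block, and each library left out.

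The members, the gene lists and the tests were chosen with earlier results of these data known. The rule for named genes took all 8 members, up to 4 genes of each list with the smallest p in the contrast described, list markers at 0, and the 10 genes most like the mean log2(CPM + 1) of the members by Pearson correlation. Genes named beside these, such as Cldn3, Epcam, Upk3a, Prr27, the B cell genes and those in the comparison of visceral percentages, were chosen after their values were seen. Promoters came from RefSeq on GRCr8. The coordinates in the deposited table were not used, because its chromosome 1 reaches 282.724 Mb.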

Additional observations from a re-analysis of the deposited data

Results flagged for a closer look

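Of 36 groups of values checked, 6 had a highest library that stood apart from the rest of its group, where chance flags about 1 in 20 groups of normally spread values. In subcutaneous DJB fat, library 4 had 54846 FPKM of Csn1s1, and the next library had 13850 FPKM. The same library gave the 8 genes 7.65% of its counts, against 2.18% in the next. Library 2 of that group had 531.0 FPKM of Glycam1, and the next had 90.8 FPKM. In subcutaneous T2DM fat, library 2 had 1071 FPKM of Csn2, with 299.5 FPKM in the next library. It also had 11.4 FPKM of Glycam1, with 2.18 FPKM in the next. In visceral DJB fat, library 1 had 0.320 FPKM of Glycam1, and the other 5 were listed at 0. The part of tissue sampling, depth or RNA quality in these values was not tested.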

How the results depend on the processing

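No setting called any of the 8 genes in a bypass contrast or in the difference between depots. Of 712 alternative values of their 24 log2 fold changes, 692 kept the sign, 20 in 5 results turned it, and 0 passed the threshold. Without 1 library at a time, Csn2 in subcutaneous bypass (-0.87) ran from -2.07 to 0.028, Elf5 in visceral bypass (-0.18) from -0.46 to 0.083, Btn1a1 in visceral bypass (0.10) from -0.14 to 0.42, and the Csn2 depot difference (-0.07) from -1.24 to 0.83. The replicate block gave -0.056 for Btn1a1 in visceral bypass. With limma on log2(FPKM + 0.1), the depot difference was 0.10 for Csn2 and 0.37 for Csn3, which had -0.89 by edgeR. The Glycam1 depot difference ran from 2.80 to 13.8 over the alternatives, and its lowest adjusted p was 0.0594.

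Of the other lactation genes called between depots, 7 in DJB and 7 in T2DM passed the filter only with the subcutaneous libraries. These are a description with no test. Of the 12 genes at 1 FPKM or more in 5 or more visceral libraries, edgeR called 3 higher in DJB (background 1.09% higher). It called 6 of them higher in T2DM (background 3.28% higher). The settings were counted over all 21 genes together, so the counts that follow are a description only. Over all 21 genes, 10 rose in subcutaneous over visceral DJB fat by edgeR. That count was 1 with limma on log2(FPKM + 1), 0 with limma on log2(FPKM + 0.1), 0 in the fit of the compared groups alone, 0 with the replicate block, and 1 to 11 without 1 library at a time, with 1 after leaving out subcutaneous DJB library 4 or visceral DJB library 1, 5 or 6. For T2DM the count of 13 over all 21 genes ran from 11 to 14 without 1 library at a time. With mitochondrially encoded genes left out of the total, the share of the 8 genes in visceral T2DM fat was 0.0552%, against 0.0400% with them. In each case the cause was not tested, apart from the smaller total that leaving out the mitochondrial genes gives.

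Over all genes, edgeR called 0 in subcutaneous bypass and 0 in the depot difference, where DESeq2 called 168 and 123. In visceral bypass edgeR called 658, DESeq2 1459, edgeR without the filter 237, the visceral groups alone 1, and limma and the replicate block 0 each. The deviations of 21 same-numbered pairs correlated at -0.18 to 0.38, with 5 over 0.1. Between the depots of one treatment the correlations were -0.12 to 0.34 in DJB and -0.18 to 0.24 in T2DM. Pairs of unlike number were not compared, and pairs of a DJB and a T2DM library cannot show a shared rat. Whether the replicate numbers pair the samples was therefore not settled.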
